A study of Homo sapiens with 6 samples.

Results

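The genes described here are 39 genes of the ATF4 stress response, among them 12 cytosolic tRNA synthetases, in HT-29, a cell line from a human colorectal cancer. They were chosen as a list of gene symbols, with earlier results of these data known, and were matched by Entrez Gene identifier to the 27434 rows of the gene tables. By role, 7 are regulators, 10 are enzymes of amino acid and one-carbon metabolism, 3 are amino acid transporter subunits, 6 are stress effectors and 13 are the synthetases together with the tRNA exporter XPOT. Of the 39, 38 had a row of their own symbol alone, and ATF5 shared its row with a microRNA gene. 36 of the 39 had a mean of at least 10 FPKM (a level scaled by gene length and by the fragments of the library) over the libraries. STC2, a secreted glycoprotein induced by stress of the endoplasmic reticulum, had 0 counts in all 6 libraries, where a count of 0 allows up to 3 counts per library. The other 38 passed the filter on low counts, which left 13001 genes to test.

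ATF4 is a transcription factor of the integrated stress response. Stress kinases that sense uncharged tRNA, misfolded protein in the endoplasmic reticulum, double-stranded RNA or lack of haem phosphorylate the initiation factor eIF2, which lowers most translation but raises that of ATF4 mRNA. ATF4 then acts with C/EBP partners on genes that make, import and charge amino acids, and it induces DDIT3 (CHOP) and TRIB3, which act in feedback and cell death. Much of this control of ATF4 is exerted on translation, so the level of its mRNA is not a measure of its protein.

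The study knocked down (KD) the long noncoding RNAs HOXA-AS3 and HOXB-AS3, transcribed from the HOXA and HOXB clusters, to find their effect on gene expression. Cells carried no other labelled alteration and received siRNAs against HOXA-AS3 (siHOXA-AS3), against HOXB-AS3 (siHOXB-AS3) or a non-targeting pool (siNT). The labels give 10 nM for 48 hours, while the study's methods give a higher dose. Each condition had 2 poly(A)-selected RNA-seq libraries, and the labels do not say whether these came from separate cultures, so p-values measure only the spread between these libraries, which may be technical.

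Promoter sequences are shown first, since the letters that ATF4 is known to bind with C/EBP partners can be read in some of them. In RefSeq promoters of GRCh38.p14, the motif TGATGNAA, the core of the C/EBP-ATF response element (CARE), was searched on both strands in the 250 bases before each start. No other motif was searched. Among the 31 members with a promoter in the table, 6 held the motif (19.4%), against 1061 of 27305 genes (3.89%) in the whole table. Counted by promoter, 6 of 47 promoters of the members held it, against 3.14% of 35116 promoters. The members were listed as genes of the ATF4 response, so a larger share than in the whole table is no independent evidence. The stretches of 60 bases around the matches are printed 5′ to 3′ on the strand of the gene, with the motif, or its reverse complement, in capitals.
AARS1, chr16:70289660-70289719, minus strand: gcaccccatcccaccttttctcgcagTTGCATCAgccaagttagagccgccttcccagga
ASNS, chr7:97872443-97872502, minus strand: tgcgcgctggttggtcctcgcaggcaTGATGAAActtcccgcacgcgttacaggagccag
ATF3, chr1:212565190-212565249, plus strand: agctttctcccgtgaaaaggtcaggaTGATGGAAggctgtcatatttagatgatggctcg
CHAC1, chr15:40953236-40953295, plus strand: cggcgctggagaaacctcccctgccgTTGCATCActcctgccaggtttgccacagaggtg
GARS1, chr7:30594818-30594877, plus strand: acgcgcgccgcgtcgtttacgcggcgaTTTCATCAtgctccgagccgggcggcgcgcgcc
IARS1, chr9:92293698-92293757, minus strand: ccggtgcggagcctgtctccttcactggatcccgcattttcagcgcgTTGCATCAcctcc

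In ASNS the motif lay 68 to 61 bases before the start, in the stretch long known to answer amino acid shortage. It lay nearest to the start in IARS1, 13 to 6 bases before it, and farthest in CHAC1, 209 to 202 bases before it. ASNS and ATF3 held it on the strand of the gene, and the other 4 members on the opposite strand. A match of letters is not a bound site, and the members without a match, VLDLR among them, lacked only these letters in this window. EIF4EBP1, LARS1, NUPR1, PSPH, PYCR1, SHMT2, SLC7A11 and YARS1 had no entry in the promoter table.

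Expected counts per library summed to between 15998518 and 26263938. Of the targeted RNAs, HOXB-AS3 was counted 303 and 213 times in siNT against 67 and 76 times in siHOXB-AS3, and HOXA-AS3 38 and 18 times in siNT against 12 and 12 times in siHOXA-AS3. Of 9 markers of colon epithelium, 8 had a mean of at least 1 FPKM and CDX2 was at 0.192 FPKM. No marker of fibroblasts (of 3) or endothelium (of 2) reached 1 FPKM, and of 3 blood markers CD68 alone did, at 11.5 FPKM. Of the 9 epithelial markers 6 had lower FPKM after HOXB-AS3 KD, with no overlap with siNT, and KRT8, KRT18 and CDX2 overlapped. Of all genes tested, 30.9% were lower without overlap in that comparison, on the log2 CPM scale. Their FPKM summed to 3503 and 3745 in siNT, 4164 and 2854 in siHOXA-AS3 and 3392 and 3555 in siHOXB-AS3. EPCAM was at 159 and 153 FPKM in siHOXB-AS3 and at 270 to 296 FPKM in the other libraries, and CEACAM5 was at 29.7 and 28.1 FPKM against 80.1 to 95.8 FPKM. The part of these markers in the results for HOXB-AS3 KD was not tested.

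The siHOXA-AS3 libraries stood apart from each other more than the other pairs did, which bears on every comparison. Over the 38 members, replicate 1 minus replicate 2 had an SD of 0.531 on the log2 CPM scale for siHOXA-AS3, against 0.204 for siNT and 0.165 for siHOXB-AS3. The difference between the siHOXA-AS3 replicates followed the GC content of the longest transcript, which ran from 35.4% in SLC7A11 to 66.2% in CEBPB. Across the 38 members, which share the libraries and are not independent replicates, Pearson r was 0.856 and Spearman rho 0.843 for siHOXA-AS3, against -0.808 and -0.838 for siNT and 0.285 and 0.283 for siHOXB-AS3. Regulators and transporters rich in GC thus stood higher in siHOXA-AS3 replicate 1, and synthetases with little GC stood higher in replicate 2. Once a loess trend on GC was removed from each library, the SD between the siHOXA-AS3 replicates was 0.265 over the members. Results are given from edgeR's quasi-likelihood test on all 6 libraries and, where a call differs, with this trend removed.

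**Figure D1:**
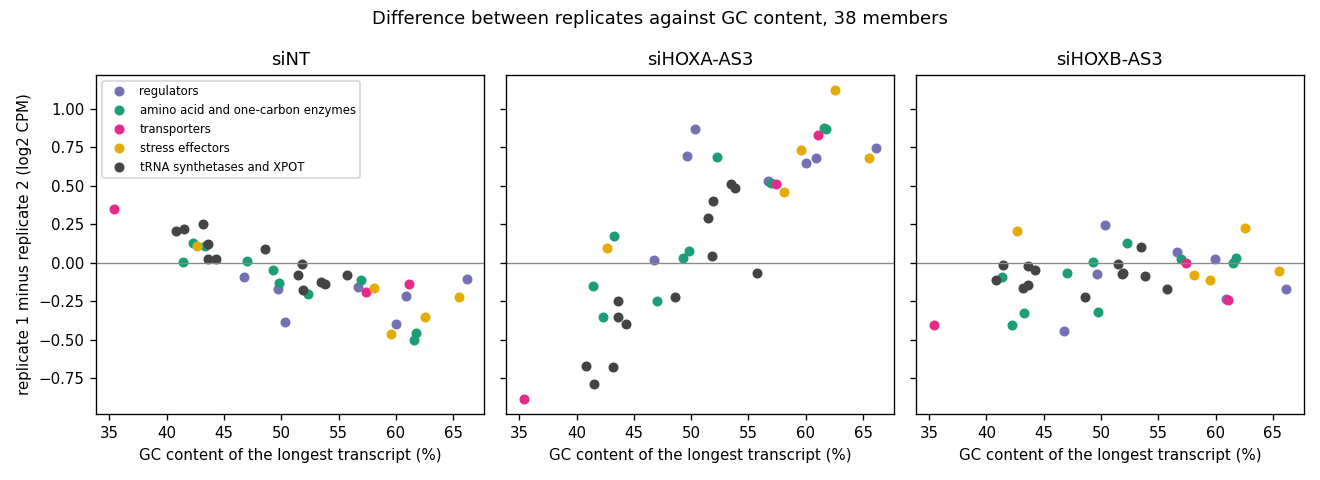
Each point is 1 of 38 members, plotted by the GC content of its longest transcript (x axis, percent) and the difference between the replicates of a condition (y axis, replicate 1 minus replicate 2, log2 CPM), coloured by role. In siHOXA-AS3 the difference climbs with GC content (Pearson r of 0.856), in siNT it declines (r of -0.808), and in siHOXB-AS3 the points stay closer to 0.

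RNA levels of the 39 genes differed widely in the siNT libraries, where no lncRNA was targeted. ATF4 had the highest level, a mean of 651 ± 47.1 FPKM (SD, n = 2) in siNT, and was followed by SARS1 (452 ± 17.6 FPKM), TRIB3 (324 ± 31.2 FPKM), ASNS (298 ± 3.43 FPKM) and GARS1 (242 ± 12.4 FPKM). No neighbours in this order overlapped in the siNT libraries, but TRIB3 and ASNS were less than 1 FPKM apart at the nearest. At the low end ATF5 was at 5.58 ± 0.976 FPKM and VLDLR at 2.72 ± 0.170 FPKM, and these did not overlap either. In bulk RNA, fewer cells that express a gene and less of its RNA per cell cannot be told apart.

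After HOXA-AS3 KD the members did not move together. NUPR1, a small stress-induced chromatin protein, had the lowest fold change, with a level in siHOXA-AS3 that was 0.223 times that in siNT, and SLC7A11, the cystine importer, the highest, 2.36 times that in siNT. Neither passed the threshold of an adjusted p of 0.05. EdgeR called 0 of 38 members and 0 of the 13001 genes tested (0%). An unadjusted p below 0.05 was reached by 4 members, NUPR1, SLC7A11, ALDH18A1 and GARS1, with 6.16% of all genes below it. DESeq2 called 2 members, SLC7A11 and NUPR1, and 0.454% of all genes. With the GC trend removed, edgeR called 3 members, SLC7A11, NUPR1 and CHAC1, and 3.78% of all genes. Of the 38 members 25 had a fold change above 0 and 13 below, with a median log2 fold change of 0.11 against 0.01 over all genes tested. In 7 members both siHOXA-AS3 libraries lay above both siNT libraries and in 3 below, where 12.4% and 16.1% of all genes did so. The count of calls depended on the siHOXA-AS3 libraries, since 16 members were called without replicate 1, where 30.3% of all genes were, and 13 without replicate 2, where 17.9% were, in fits where the lone library was assumed to vary like the other groups.

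After HOXB-AS3 KD, ATF3 and CTH had the highest fold changes, 1.86 and 1.54 times the siNT level, and VLDLR the lowest, 0.539 times. EdgeR called 0 of 38 members here too, with 0.0615% of all genes called. An unadjusted p below 0.05 was reached by 4 members, ATF3, VLDLR, CTH and SLC3A2, against 12.1% of all genes. DESeq2 called ATF3 alone, with 2.74% of all genes called. With the GC trend removed, 5 members were called, namely ATF3, ATF5, MARS1 and SLC3A2 upwards and VLDLR downwards, with 13.0% of all genes called. The fold change was above 0 in 23 members and below in 15, and its median log2 value was 0.06 against -0.01 over all genes. The libraries did not overlap in 15 members that were higher and 5 that were lower, where 30.9% of all genes were higher and 30.9% lower. Without the siHOXA-AS3 libraries in the fit 13 members were called, with 23.3% of all genes. The count was also 13 without siHOXA-AS3 replicate 1 (22.7% of all genes) and without replicate 2 (22.6%).

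Between the KDs, VLDLR was the member that edgeR called of 38, with 1.54% of all genes called, and it was lower after HOXB-AS3 KD. An unadjusted p below 0.05 was reached by 8 members, against 18.4% of all genes. DESeq2 called 5 members, with SLC7A11, VLDLR and CHAC1 lower and NUPR1 and ATF3 higher after HOXB-AS3 KD, and it called 6.07% of all genes. With the GC trend removed 11 members were called and 25.3% of all genes. The 6 higher after HOXB-AS3 KD were NUPR1, ATF3, DDIT3, ALDH18A1, SLC3A2 and AARS1, and the 5 lower were VLDLR, SLC7A11, CHAC1, SLC7A5 and GARS1. The median log2 fold change of HOXB-AS3 KD against HOXA-AS3 KD was 0.09 over the members and -0.01 over all genes. The libraries did not overlap in 9 members that were higher and 6 that were lower, against 22.8% and 22.5% of all genes. Calls numbered 21 without siHOXA-AS3 replicate 1, with 37.9% of all genes called, 19 without replicate 2, with 36.0%, and 0 without any other library. The KDs were compared with the same siNT libraries, so their fold changes against siNT are not independent of each other.

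**Figure D2:**
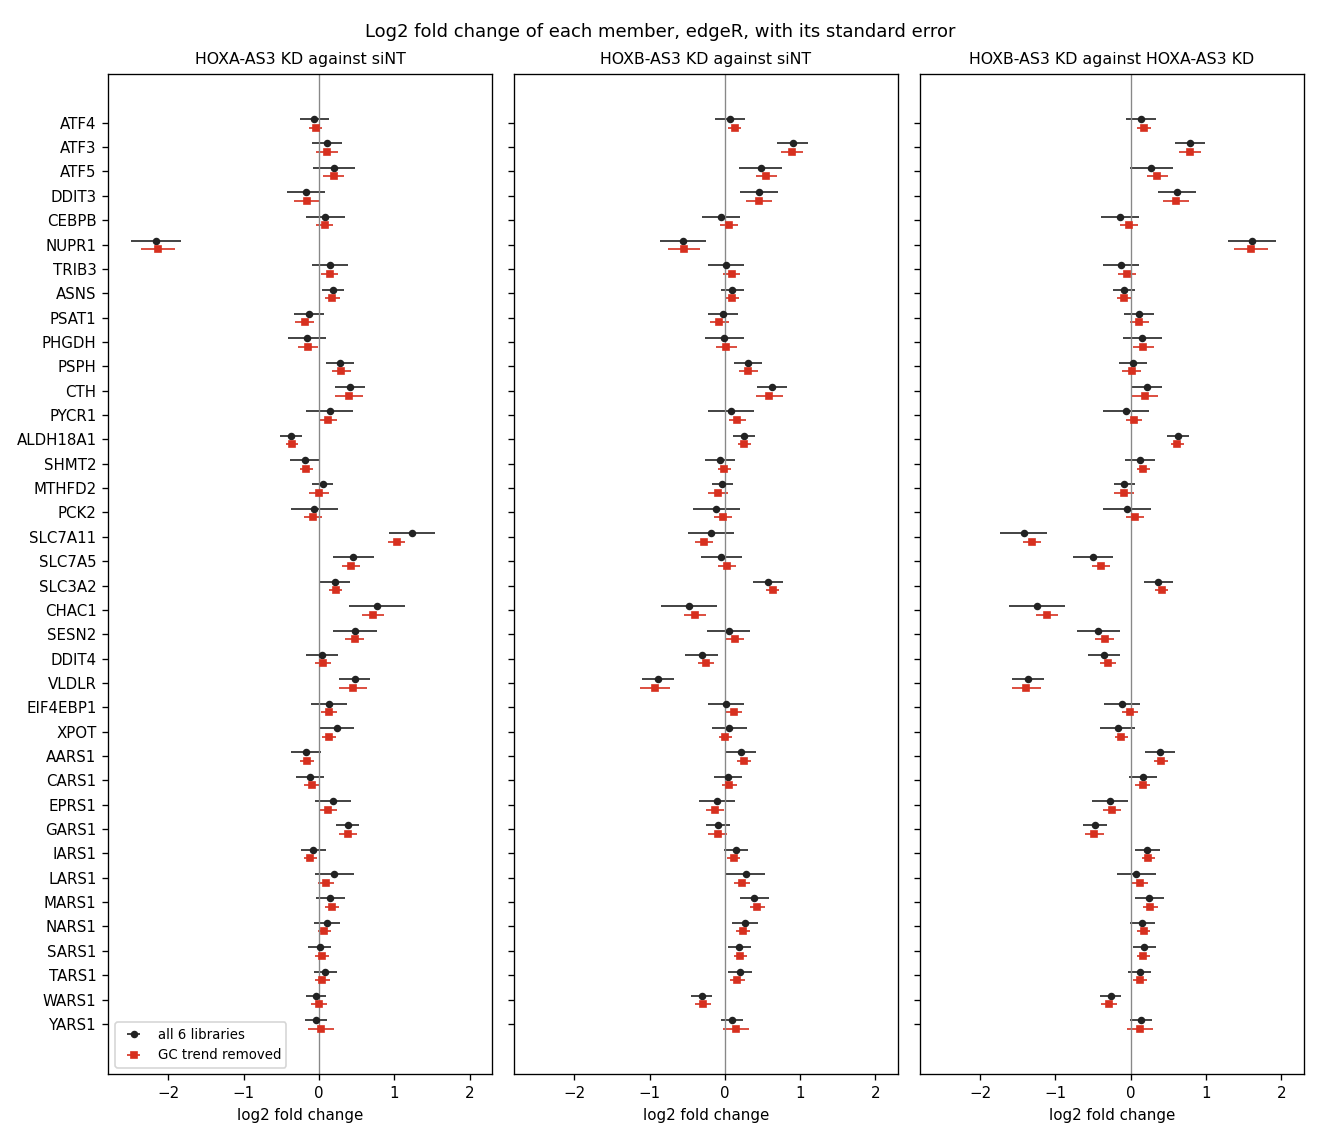
Log2 fold change (x axis) of each of 38 members (y axis) in the 3 comparisons, with the standard error of edgeR's estimate as bars. Black circles are the fit on all 6 libraries and red squares the same fit with a GC trend removed, where bars of most members are shorter and NUPR1, SLC7A11, CHAC1, VLDLR and ATF3 lie farthest from 0.

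Among the regulators, ATF4 mRNA was at 617 and 684 FPKM in siNT, 736 and 509 FPKM in siHOXA-AS3 and 681 and 644 FPKM in siHOXB-AS3. The siHOXA-AS3 libraries lay on either side of the others, and the groups overlapped in every comparison. Its log2 fold change was -0.06 after HOXA-AS3 KD (standard error 0.198, adjusted p = 0.997) and 0.07 after HOXB-AS3 KD (standard error 0.198, adjusted p = 0.932). Its direction after HOXA-AS3 KD turned without siNT replicate 2 or siHOXA-AS3 replicate 2, and after HOXB-AS3 KD without siNT replicate 1. DDIT3, a pro-apoptotic partner of C/EBP proteins, was at 60.3 and 68.1 FPKM in siNT, 70.9 and 42.6 FPKM in siHOXA-AS3 and 82.6 and 85.2 FPKM in siHOXB-AS3. Both siHOXB-AS3 libraries lay above all other libraries, at 0.45 against siNT on the log2 scale (standard error 0.252, adjusted p = 0.554). Against HOXA-AS3 KD the log2 fold change of DDIT3 was 0.61 (adjusted p = 0.26), and with the GC trend removed it was called (0.61, adjusted p = 0.0349). TRIB3, a pseudokinase that ATF4 induces and that restrains it in turn, was at 302 and 346 FPKM in siNT, 438 and 269 FPKM in siHOXA-AS3 and 295 and 346 FPKM in siHOXB-AS3. Its groups overlapped, and its log2 fold changes were 0.15 (adjusted p = 0.997) and 0.02 (adjusted p = 0.99) after HOXA-AS3 and HOXB-AS3 KD. DDIT3 and TRIB3 turned direction after HOXA-AS3 KD when siHOXA-AS3 replicate 2 and replicate 1, respectively, were left out.

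ATF3, a transcription factor induced by ATF4 and by many other stresses, was at 26.3 and 27.8 FPKM in siNT, 29.3 and 29.1 FPKM in siHOXA-AS3 and 41.6 and 56.5 FPKM in siHOXB-AS3. Both siHOXB-AS3 libraries lay above the other 4, and the siHOXA-AS3 libraries lay just above siNT. The log2 fold change of ATF3 after HOXB-AS3 KD was 0.90 (standard error 0.202, adjusted p = 0.153 in edgeR and 0.0138 in DESeq2), and with the GC trend removed it was 0.89 (adjusted p = 0.00698). Against HOXA-AS3 KD it was 0.79 (standard error 0.201, adjusted p = 0.113 in edgeR and 0.0304 in DESeq2). NUPR1 was at 38.03 and 49.1 FPKM in siNT, 12.5 and 6.82 FPKM in siHOXA-AS3 and 31.2 and 26.1 FPKM in siHOXB-AS3. The siHOXA-AS3 libraries were the lowest and the siNT libraries the highest, with no overlap between any groups. Its log2 fold change after HOXA-AS3 KD was -2.16 (standard error 0.327, edgeR), where the adjusted p was 0.358 in edgeR, 4.83e-08 in DESeq2 and 0.0049 with the GC trend removed. Leaving out single libraries moved the value between -2.67 and -1.79. The difference between the KDs in NUPR1, a log2 fold change of 1.61 (standard error 0.323), had an adjusted p of 0.0673 in edgeR, 5.71e-05 in DESeq2 and 0.00227 with the GC trend removed. After HOXB-AS3 KD its log2 fold change against siNT was -0.55 (standard error 0.308, adjusted p = 0.552).

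ATF5, an ATF4 relative of the mitochondrial stress response, was at 4.89 and 6.27 FPKM in siNT, 7.87 and 4.98 FPKM in siHOXA-AS3 and 7.67 and 7.52 FPKM in siHOXB-AS3. Its log2 fold change after HOXB-AS3 KD was 0.48 (adjusted p = 0.572), and 0.55 with the GC trend removed (adjusted p = 0.0344). Exons of NUP62 on the opposite strand cover 21.9% of the annotated exon bases of ATF5, and whether counting used the strand is not given in the sources used here. CEBPB, the C/EBP partner of ATF4, had overlapping groups in each comparison and log2 fold changes of 0.09 and -0.05 after HOXA-AS3 and HOXB-AS3 KD. Exons of CEBPB-AS1 cover 11.8% of its exon bases in the same way.

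**Figure D3:**
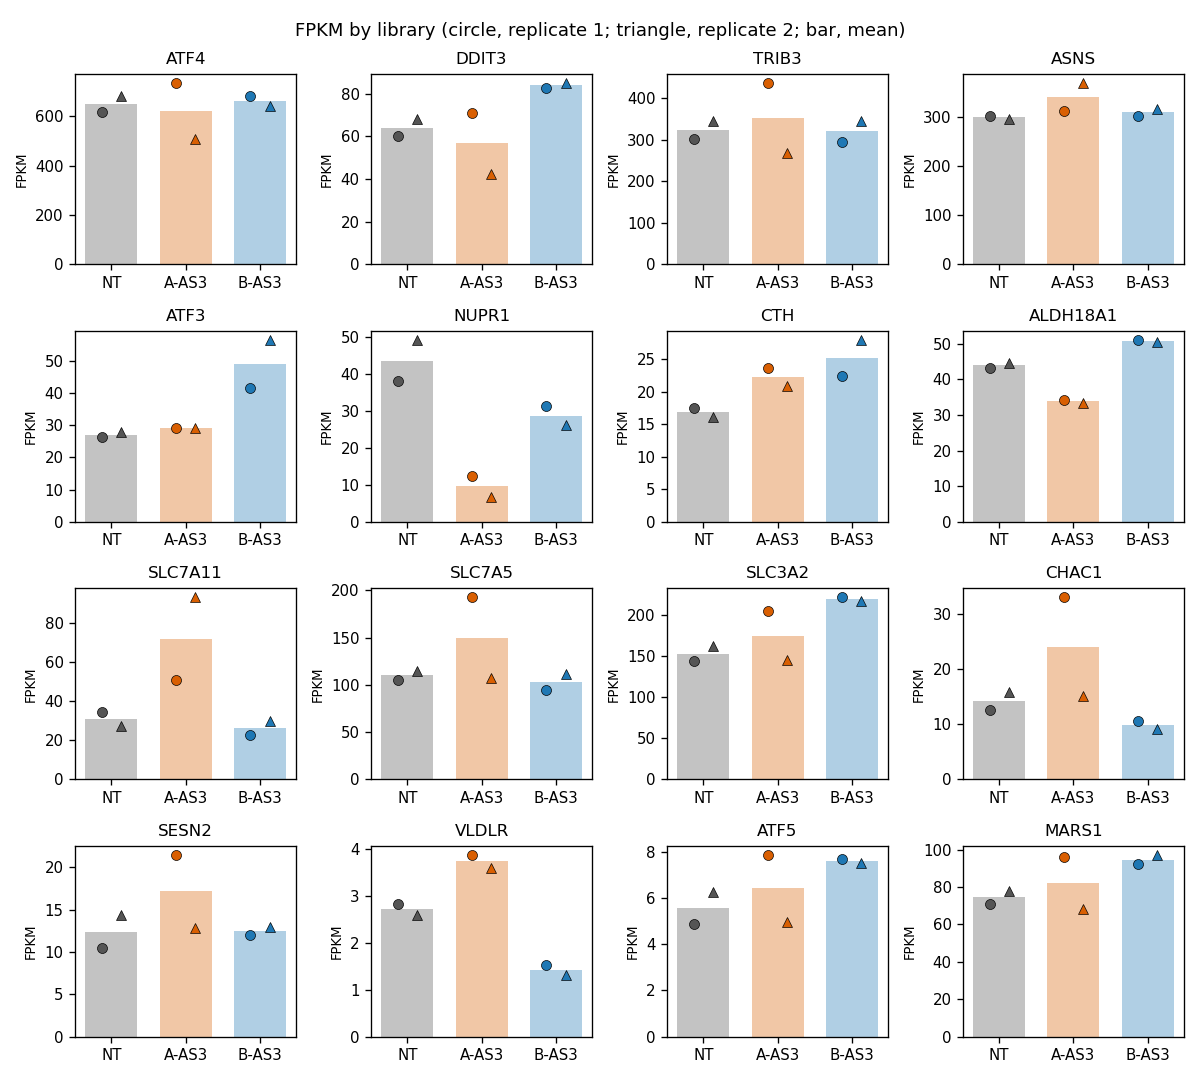
Level (y axis, FPKM, from 0) of 16 members in the siNT (NT), siHOXA-AS3 (A-AS3) and siHOXB-AS3 (B-AS3) libraries, where circles are replicate 1, triangles replicate 2 and bars the mean of 2. NUPR1 is lowest and SLC7A11 highest in siHOXA-AS3, ATF3 is highest and VLDLR lowest in siHOXB-AS3, and ATF4 overlaps between conditions.

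Among the enzymes, ASNS, asparagine synthetase and a standard readout of ATF4 activity, was at 301 and 296 FPKM in siNT, 312 and 369 FPKM in siHOXA-AS3 and 302 and 315 FPKM in siHOXB-AS3. Both libraries of each KD lay above the siNT libraries, siHOXB-AS3 replicate 1 by less than 1 FPKM. Its log2 fold changes were 0.19 (standard error 0.148, adjusted p = 0.975) after HOXA-AS3 KD and 0.10 (standard error 0.148, adjusted p = 0.853) after HOXB-AS3 KD. CTH, which makes cysteine from cystathionine, was at 17.6 and 16.2 FPKM in siNT, 23.8 and 20.9 FPKM in siHOXA-AS3 and 22.5 and 28.0 FPKM in siHOXB-AS3. All 4 KD libraries lay above siNT, and those of the KDs overlapped with each other. The log2 fold change of CTH was 0.41 (standard error 0.198, adjusted p = 0.862) after HOXA-AS3 KD and 0.63 (standard error 0.198, adjusted p = 0.268) after HOXB-AS3 KD. ALDH18A1, the first enzyme of proline synthesis from glutamate, was at 43.4 and 44.6 FPKM in siNT, 34.3 and 33.5 FPKM in siHOXA-AS3 and 51.1 and 50.6 FPKM in siHOXB-AS3. Its replicates were close together and the conditions did not overlap, with siHOXA-AS3 lowest and siHOXB-AS3 highest. The KDs differed by 0.63 on the log2 scale (standard error 0.146), at an adjusted p of 0.0893 in edgeR, 0.0611 in DESeq2 and 0.00187 with the GC trend removed. Against siNT it was -0.37 (adjusted p = 0.751) after HOXA-AS3 KD and 0.26 (adjusted p = 0.554) after HOXB-AS3 KD.

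The other 7 enzymes make serine (PHGDH, PSAT1, PSPH), pass its carbon to folate (SHMT2, MTHFD2), make proline (PYCR1) or form phosphoenolpyruvate in mitochondria (PCK2). Their log2 fold changes lay between -0.19 (SHMT2) and 0.28 (PSPH) after HOXA-AS3 KD, and between -0.11 (PCK2) and 0.31 (PSPH) after HOXB-AS3 KD. In PSPH all 4 KD libraries lay above both siNT libraries, at 25.0 and 27.2 FPKM in siNT against 27.9 to 34.6 FPKM. Opposite-strand exons cover 29.7% of the exon bases of MTHFD2 (SLC4A5), 19.6% of PYCR1 (AC145207.4) and 14.1% of SHMT2 (AC137834.2), so their counts may hold reads of those genes if strand was not used. The adjusted p of PSPH was 0.957 and 0.585 in the comparisons with siNT. Over all 10 enzymes the median log2 fold change was -0.01 after HOXA-AS3 KD and 0.04 after HOXB-AS3 KD, and 0 were called in edgeR, in DESeq2 or, against siNT, with the GC trend removed. Before adjustment, 1 enzyme was below 0.05 in each of the 3 comparisons, namely ALDH18A1 for HOXA-AS3 KD and between the KDs, and CTH for HOXB-AS3 KD. Of all genes, 6.16% were below it for HOXA-AS3 KD, 12.1% for HOXB-AS3 KD and 18.4% between the KDs.

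Among the transporters, SLC7A11, the subunit that exchanges cystine for glutamate, was at 34.5 and 27.0 FPKM in siNT, 50.7 and 92.9 FPKM in siHOXA-AS3 and 22.6 and 29.8 FPKM in siHOXB-AS3. Both siHOXA-AS3 libraries lay above the other 4, and replicate 2 was higher than replicate 1. SLC7A11 had the lowest GC content of the members, and with the GC trend removed its siHOXA-AS3 libraries lay 1.04 and 1.02 above the siNT mean on the log2 CPM scale, against 0.74 and 1.62 before. The log2 fold change after HOXA-AS3 KD was 1.24 (standard error 0.311, adjusted p = 0.527 in edgeR and 0.0136 in DESeq2), and 1.03 with the GC trend removed (standard error 0.118, adjusted p = 0.00568). After HOXB-AS3 KD the log2 fold change was -0.18 (standard error 0.307, adjusted p = 0.875). Between the KDs it was -1.42 (standard error 0.312), at an adjusted p of 0.0831 in edgeR, 0.000185 in DESeq2 and 0.000381 with the GC trend removed. SLC3A2, the heavy chain that carries SLC7A11 and SLC7A5 to the membrane, did not follow the same order. It was at 144 and 162 FPKM in siNT, 204 and 145 FPKM in siHOXA-AS3 and 221 and 218 FPKM in siHOXB-AS3. Both siHOXB-AS3 libraries lay above the other 4, with a log2 fold change against siNT of 0.58 (standard error 0.199, adjusted p = 0.305), and of 0.64 with the GC trend removed (adjusted p = 0.00353). SLC7A5, the leucine importer, was at 105 and 115 FPKM in siNT, 193 and 108 FPKM in siHOXA-AS3 and 94.9 and 112 FPKM in siHOXB-AS3. Its log2 fold change of 0.46 after HOXA-AS3 KD (standard error 0.269, adjusted p = 0.921) was -0.02 without siHOXA-AS3 replicate 1.

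Among the stress effectors, VLDLR, a lipoprotein receptor induced by ATF4 under stress of the endoplasmic reticulum, was at 2.84 and 2.60 FPKM in siNT, 3.88 and 3.61 FPKM in siHOXA-AS3 and 1.53 and 1.32 FPKM in siHOXB-AS3. The conditions did not overlap, with siHOXA-AS3 highest and siHOXB-AS3 lowest, and the replicates of each condition were less than 0.3 FPKM apart. Between the KDs VLDLR was 2.57-fold lower after HOXB-AS3 KD (log2 fold change -1.36, standard error 0.209, adjusted p = 0.039 in edgeR, 7.34e-05 in DESeq2 and 0.00193 with the GC trend removed). Leaving out a library moved this value between -1.47 and -1.27, and the adjusted p over all alternatives ran from 4.92e-06 to 0.545. The call was lost without siNT replicate 1 (adjusted p = 0.141), without siNT replicate 2 (0.141), without siHOXB-AS3 replicate 1 (0.409) and without siHOXB-AS3 replicate 2 (0.545). It was also lost when siNT was left out of the fit (adjusted p = 0.142) and with the replicate block (0.107). Against siNT the log2 fold change of VLDLR was 0.47 after HOXA-AS3 KD (standard error 0.205, adjusted p = 0.812) and -0.89 after HOXB-AS3 KD (standard error 0.209, adjusted p = 0.159). VLDLR lies on chromosome 9 from 2621787 to 2660056 in the RefSeq annotation of GRCh38, and exons of VLDLR-AS1 on the opposite strand cover 8.05% of its exon bases.

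CHAC1, which degrades glutathione, was at 12.5 and 15.9 FPKM in siNT, 33.1 and 15.2 FPKM in siHOXA-AS3 and 10.7 and 9.06 FPKM in siHOXB-AS3. The siHOXA-AS3 replicates were more than 2-fold apart on the log2 CPM scale, the widest of the members, and the siHOXB-AS3 libraries were the lowest. Its log2 fold change after HOXA-AS3 KD was 0.77 (standard error 0.367, adjusted p = 0.862), ranging from 0.10 to 1.24 as single libraries were left out, and with the GC trend removed it was 0.72 (standard error 0.143, adjusted p = 0.0327). Between the KDs it was -1.25 (standard error 0.371), at an adjusted p of 0.148 in edgeR, 0.00745 in DESeq2 and 0.00147 with the GC trend removed. SESN2, an inhibitor of mTORC1 that senses leucine, was at 10.5 and 14.4 FPKM in siNT, 21.5 and 12.9 FPKM in siHOXA-AS3 and 11.98 and 12.9 FPKM in siHOXB-AS3. Its groups overlapped, and its log2 fold change after HOXA-AS3 KD was 0.48 (standard error 0.287, adjusted p = 0.923). DDIT4, another inhibitor of mTORC1, and EIF4EBP1, the translation repressor that mTORC1 controls, had log2 fold changes of 0.04 and 0.13 after HOXA-AS3 KD and -0.31 and 0.02 after HOXB-AS3 KD. Exons of DDIT4-AS1 cover 48.5% of the exon bases of DDIT4 on the opposite strand. All 5 effectors tested had a fold change above 0 after HOXA-AS3 KD, as had 6664 of 13001 genes. All 5 had one below 0 between the KDs, as had 6643 of 13001, but both comparisons share the siHOXA-AS3 libraries. Relative to the siNT mean, log2 CPM averaged over the 5 came to 0.65 for replicate 1 of siHOXA-AS3. For replicate 2 it came to 0.03, between the siNT libraries (-0.11 and 0.11), with DDIT4 (-0.20) and EIF4EBP1 (-0.25) below 0. With the GC trend removed these averages were 0.42 and 0.30. Between the KDs VLDLR alone was called by edgeR on all 6 libraries, and CHAC1 also by DESeq2 and with the GC trend removed.

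The synthetases, which load amino acids onto tRNA, and XPOT, which carries tRNA out of the nucleus, were the largest group. In each comparison the largest absolute log2 fold change of this group was smaller than that of any other role. EdgeR called 0 of 13 in each comparison (0%, 0.0615% and 1.54% of all genes), as did DESeq2 (0.454%, 2.74% and 6.07%). An unadjusted p below 0.05 was reached by 1 after HOXA-AS3 KD, by 0 after HOXB-AS3 KD and by 1 between the KDs. Of all genes, 6.16%, 12.1% and 18.4% reached it. For HOXA-AS3 KD their values on the log2 scale ran from -0.17 to 0.38 with a median of 0.08. The highest was that of GARS1, the glycine enzyme, which was at 251 and 233 FPKM in siNT, 288 and 340 FPKM in siHOXA-AS3 and 204 and 237 FPKM in siHOXB-AS3. Both siHOXA-AS3 libraries lay above the other 4, at 0.38 against siNT on the log2 scale (standard error 0.157, adjusted p = 0.787), and HOXB-AS3 KD against HOXA-AS3 KD gave -0.48 (adjusted p = 0.179, and 0.0233 with the GC trend removed). After HOXB-AS3 KD the log2 fold changes ran from -0.31 to 0.39 with a median of 0.15, and 10 of 13 were above 0. In 7 of the 13 both siHOXB-AS3 libraries lay above both siNT libraries, and in 1, WARS1, below, where 30.9% of all genes lay above and 30.9% below.

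WARS1, the tryptophan enzyme and also a gene induced by interferon-gamma, was at 143 and 141 FPKM in siNT, 140 and 136 FPKM in siHOXA-AS3 and 109 and 114 FPKM in siHOXB-AS3. Its siHOXB-AS3 libraries were the lowest of the 6, at -0.31 against siNT on the log2 scale (standard error 0.136, adjusted p = 0.443). MARS1, the methionine enzyme, was at 71.1 and 77.7 FPKM in siNT, 95.8 and 68.1 FPKM in siHOXA-AS3 and 92.0 and 97.2 FPKM in siHOXB-AS3. The log2 fold change of MARS1 after HOXB-AS3 KD was 0.39 (standard error 0.194, adjusted p = 0.499), and 0.43 with the GC trend removed (adjusted p = 0.02). MARS1 and DDIT3 end against each other on opposite strands and share 62 exon bases. AARS1, the alanine enzyme, was at 46.8 and 50.7 FPKM in siNT, 50.6 and 35.3 FPKM in siHOXA-AS3 and 56.9 and 52.9 FPKM in siHOXB-AS3, and its difference between the KDs was called with the GC trend removed (0.41, adjusted p = 0.0145) but not without (0.39, adjusted p = 0.366). In the other 8 synthetases and XPOT no fold change against siNT exceeded 0.28 on the log2 scale in either direction. XPOT, EPRS1 and LARS1, which have little GC, stood higher in siHOXA-AS3 replicate 2 than in replicate 1, at 152 against 96.2 FPKM, 117 against 73.5 FPKM and 61.1 against 35.6 FPKM. LARS1 was at 46.0 and 39.0 FPKM in siNT and 49.7 and 49.9 FPKM in siHOXB-AS3.

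**Figure D4:**
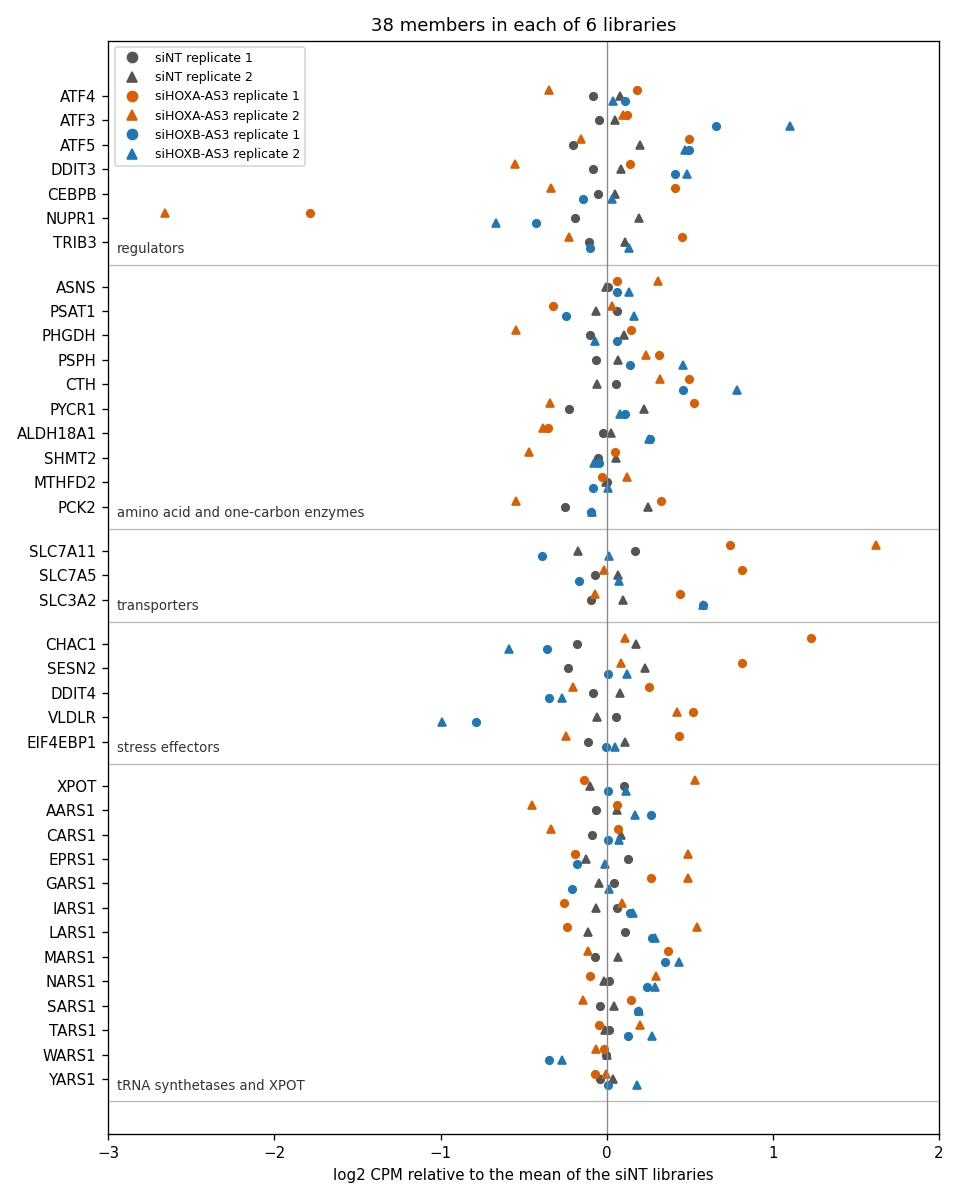
Level of each of 38 members (y axis, grouped by role) in each of 6 libraries, as log2 CPM minus the siNT mean (x axis), with colours for conditions and circles and triangles for replicates 1 and 2. Among the tRNA synthetases and XPOT the point farthest from 0 is LARS1 in siHOXA-AS3 replicate 2, at 0.55. Of all members, NUPR1 and SLC7A11 in siHOXA-AS3, ATF3 and VLDLR in siHOXB-AS3 and CHAC1 in siHOXA-AS3 replicate 1 lie farthest out.

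Averaged over the 38 members, log2 CPM relative to the siNT mean was 0.17 and -0.06 in siHOXA-AS3 and 0.03 and 0.11 in siHOXB-AS3, where the siNT libraries themselves lay at -0.05 and 0.05. The siHOXA-AS3 libraries thus lay on both sides of the siNT libraries, and siHOXB-AS3 replicate 1 lay between them. With the GC trend removed the siNT libraries lay at -0.02 and 0.02, and all 4 KD libraries lay above both, siHOXA-AS3 at 0.085 and 0.032 and siHOXB-AS3 at 0.033 and 0.14.

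The rest of the pathway was read from 4 lists. One list held 18 genes, namely the eIF2 kinases, phosphatase subunits, eIF2, its exchange factor eIF2B, and GCN1, IMPACT, DELE1 and OMA1. EdgeR called 0 of the 18 in each comparison. An unadjusted p below 0.05 was reached by 0 in HOXA-AS3 KD and 2 in HOXB-AS3 KD against siNT, and by 2 between the KDs. Of all genes, 6.16%, 12.1% and 18.4% reached it. DESeq2 called 0, 0 and 1 of the 18. With the GC trend removed edgeR called 0, 2 and 3, against 3.78%, 13.0% and 25.3% of all genes. The 2 called in HOXB-AS3 KD, PPP1R15A and EIF2B3, were higher than in siNT. PPP1R15A, the phosphatase subunit that reverses eIF2 phosphorylation, was at 46.6 and 60.3 FPKM in siNT, 68.5 and 32.6 FPKM in siHOXA-AS3 and 94.6 and 111 FPKM in siHOXB-AS3. Both siHOXB-AS3 libraries lay above the other 4, with a log2 fold change of 0.99 against siNT (standard error 0.343, adjusted p = 0.304), and of 1.07 with the GC trend removed (adjusted p = 0.00593). The median log2 fold change of the list was -0.07 after HOXA-AS3 KD and 0.12 after HOXB-AS3 KD.

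Of 28 other genes reported to respond to ATF4, edgeR called 0 in each comparison, and in the same order 4, 11 and 9 were below 0.05 before adjustment, where 6.16%, 12.1% and 18.4% of all genes were. DESeq2 called 2, 3 and 4 of them (0.454%, 2.74% and 6.07% of all genes), and with the GC trend removed edgeR called 3, 11 and 9 (3.78%, 13.0% and 25.3%). Of the 11 called after HOXB-AS3 KD, 9 were higher than in siNT and 2, NIBAN1 and KLHL24, were lower. The median log2 fold change of the 28 genes was 0.24 after HOXA-AS3 KD and 0.27 after HOXB-AS3 KD, with 25 of 28 and 18 of 28 above 0. SLC6A9, a glycine transporter, was at 5.31 and 6.49 FPKM in siNT, 14.1 and 9.30 FPKM in siHOXA-AS3 and 10.1 and 11.8 FPKM in siHOXB-AS3, so that all 4 KD libraries lay above siNT (log2 fold change after HOXA-AS3 KD 1.01, standard error 0.258, adjusted p = 0.529). JDP2, a repressor of AP-1 sites, was at 5.64 and 7.33 FPKM in siNT, 3.43 and 1.78 FPKM in siHOXA-AS3 and 5.57 and 6.12 FPKM in siHOXB-AS3 (log2 fold change after HOXA-AS3 KD -1.30, standard error 0.334, adjusted p = 0.529). Its siHOXA-AS3 libraries were the lowest of the 6. GADD45B, a stress sensor upstream of p38 and JNK, was at 3.25 and 3.48 FPKM in siNT, 3.81 and 3.39 FPKM in siHOXA-AS3 and 8.02 and 7.19 FPKM in siHOXB-AS3 (log2 fold change after HOXB-AS3 KD 1.23, standard error 0.232, adjusted p = 0.112). CEBPD, another C/EBP factor, was at 8.69 and 9.97 FPKM in siNT, 10.9 and 9.77 FPKM in siHOXA-AS3 and 18.3 and 20.7 FPKM in siHOXB-AS3 (log2 fold change after HOXB-AS3 KD 1.11, standard error 0.210, adjusted p = 0.112). For both genes the siHOXB-AS3 libraries lay above the other 4. The fold changes just given were called, once the GC trend was removed, for SLC6A9 (adjusted p = 0.00845), JDP2 (0.0243), GADD45B (0.00571) and CEBPD (0.0176).

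Of the 10 other cytosolic synthetases and scaffold proteins of the synthetase complex, edgeR called 0 in each comparison, and DESeq2 called 0, 0 and 1. An unadjusted p below 0.05 was reached by 1, 0 and 1, against 6.16%, 12.1% and 18.4% of all genes. With the GC trend removed edgeR called 1, 3 and 7 of the 10, where 3.78%, 13.0% and 25.3% of all genes were called. The 1 after HOXA-AS3 KD, QARS1, was lower, and the others were higher after HOXB-AS3 KD. QARS1, the glutamine enzyme, was at 39.1 and 41.2 FPKM in siNT, 28.5 and 22.7 FPKM in siHOXA-AS3 and 46.1 and 43.9 FPKM in siHOXB-AS3. The conditions did not overlap, and the log2 fold change after HOXA-AS3 KD was -0.64 (standard error 0.177, adjusted p = 0.608, and 0.0153 with the GC trend removed). All 10 had a fold change above 0 after HOXB-AS3 KD, with a median of 0.21 on the log2 scale against -0.01 over all genes. Of the 17 mitochondrial synthetases edgeR called 0 in each comparison, as did DESeq2. An unadjusted p below 0.05 was reached by 0, 1 and 2 of them, against the same shares of all genes as above. EdgeR with the GC trend removed called 0, 1 and 6, all higher after HOXB-AS3 KD, against 3.78%, 13.0% and 25.3% of all genes. The median log2 fold change of the 17 was -0.02 after HOXA-AS3 KD and 0.22 after HOXB-AS3 KD.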

How the data were processed

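HT-29 cells were profiled by RNA-seq with 2 libraries per condition, prepared with a strand-keeping poly(A) kit. The authors deposited, for each library, RSEM expected counts (estimated fragments per gene, not normalized), TPM and FPKM values for RefSeq genes. The submitters' processing notes name hg19, while the sources used here do not name the aligner, the RSEM version or the use of strand. The labels and the study's methods differ in siRNA dose and RNA extraction, and groups were taken from the labels. TPM values, which the authors deposited on a scale of equal sums, were not used.

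Of 27434 rows, 627 join several genes (6.02% to 6.62% of counts), and 195 without a symbol (0.0383% to 0.0475% of counts) were left out of tests. Expected counts were rounded and tested with edgeR 4.0.16 in R 4.3.3 (filterByExpr with a minimum count of 10, TMM, robust quasi-likelihood test, 1 model of all 6 libraries, Benjamini-Hochberg adjustment over 13001 genes, threshold 0.05). Standard errors are the log2 fold change divided by the square root of its F statistic. "No overlap" compares log2 CPM, but FPKM for the cell type markers and for the order of members in siNT. Alternatives were DESeq2 1.42.0 (the tool named in the study's methods), scaling by RLE or by library totals, all genes with a count, genes with a mean FPKM of 1 or more, a fit on only the groups compared, a block for the replicate number, limma-trend (limma 3.58.1) on log2(FPKM + 0.1), a loess trend on GC (span 0.3) removed per library, both together, and each library left out. GC came from the longest GENCODE v29 transcript, with a value for 98% of genes tested. The calling step was tested on simulated data. No libraries were identical (smallest chi-square per degree of freedom 7.07).

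The members and lists were chosen with earlier results of these data known, as was the GC trend. Members named are ATF4, DDIT3, TRIB3, ASNS, any called member and, per comparison, the 6 with the largest absolute fold change at a mean FPKM of at least 1, and likewise 3 other pathway genes per KD. Further members named in the text, and ATF5 and MARS1 in the plot of levels, were chosen after their values were seen. CCPG1 and EEF1E1, on rows joining several genes, were left out of the lists.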

Additional observations from a re-analysis of the deposited data

Results flagged for a closer look

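VLDLR was flagged for its difference between the KDs. Its level stood above siNT in both siHOXA-AS3 libraries and below siNT in both siHOXB-AS3 libraries, and the difference itself, tested in edgeR on all 6 libraries, was a log2 fold change of -1.36 (adjusted p = 0.039). It was the single member called in that test, and its expression was low in all libraries, with at most 3.88 FPKM.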

How the results depend on the processing

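Fold changes of named members were steadier than the calls. Over 26 named fold changes and 16 alternatives each, 323 of 416 values kept direction and side of the threshold, 75 passed it with the same direction, 7 no longer passed it and 11 turned direction, and the cause was not tested. The number of members called (0 after HOXA-AS3 KD, 0 after HOXB-AS3 KD, 1 between the KDs) was 2, 1 and 5 with DESeq2, 1, 1 and 4 without the filter (0.136%, 1.44% and 3.98% of all genes), and 3, 5 and 11 with the GC trend removed. With only the groups compared it was 0, 13 and 0 (0%, 23.3% and 0.0156% of all genes). With limma-trend it was 0, 0 and 0 (0%, 0.100% and 0.974% of the genes in that fit). Leaving out a library gave 0 to 16, 0 to 13 and 0 to 21 calls, and medians of -0.043 to 0.15, 0.01 to 0.13 and -0.02 to 0.18. Where 1 library remained in a condition, it was assumed to vary like the others. The call of VLDLR between the KDs was also lost with limma-trend (adjusted p = 0.0507). Over the alternatives the adjusted p ran from 4.83e-08 to 1 for NUPR1 and from 3.89e-05 to 1 for SLC7A11 after HOXA-AS3 KD, and from 1.09e-05 to 1 for ATF3 after HOXB-AS3 KD.

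Replicate numbers were not taken as pairs. The differences between replicates correlated over 13001 genes at -0.311 (siNT and siHOXA-AS3), -0.143 (siNT and siHOXB-AS3) and 0.138 (siHOXA-AS3 and siHOXB-AS3). Over the same genes these differences followed GC content in opposite directions in siNT (Pearson r of -0.344) and siHOXA-AS3 (0.71). The correlations were not computed with the GC trend removed, so they cannot decide whether the samples were paired. With the replicate block 0, 0 and 0 members were called (0%, 0% and 0.0769% of all genes), and with the block and the GC trend removed 2, 4 and 10 (1.70%, 8.89% and 20.5%).

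TRIB3 after HOXB-AS3 KD was at -0.030 with library totals, -0.0037 at a mean FPKM of at least 1 and -0.017 with limma-trend, and it ranged from -0.10 to 0.13 as libraries were left out, -0.09 without siNT replicate 1. Such ranges were -0.35 to 0.19 for ATF4 (0.02 without siNT replicate 2), -0.55 to 0.15 for DDIT3, -0.23 to 0.46 for TRIB3 and -0.020 to 0.82 for SLC7A5 after HOXA-AS3 KD, and -0.0069 to 0.16 for ATF4 after HOXB-AS3 KD. No scaling alternative moved the median of all genes by more than 0.05.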

Other observations

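Some pathway genes outside the members are named here after their values were seen. In GDF15 and HMOX1 both siHOXB-AS3 libraries lay above the other 4. GDF15, a secreted stress hormone, was at 276 and 337 FPKM in siNT, 418 and 246 FPKM in siHOXA-AS3 and 441 and 531 FPKM in siHOXB-AS3 (log2 fold change after HOXB-AS3 KD 0.71, standard error 0.269, adjusted p = 0.347 in edgeR). HMOX1, haem oxygenase, was at 10.5 and 10.8 FPKM in siNT, 13.5 and 8.58 FPKM in siHOXA-AS3 and 18.6 and 18.8 FPKM in siHOXB-AS3 (log2 fold change 0.86, standard error 0.250, adjusted p = 0.233). TNFRSF10B, the death receptor DR5, was higher than siNT in all 4 KD libraries, at 19.6 and 20.8 FPKM in siNT, 31.8 and 28.2 FPKM in siHOXA-AS3 and 26.2 and 30.2 FPKM in siHOXB-AS3 (log2 fold changes 0.58 and 0.52, adjusted p = 0.614 and 0.28). None passed the threshold in edgeR, but after HOXB-AS3 KD each did with the GC trend removed, as 13.0% of all genes did. There the adjusted p was 0.00528 for GDF15, 0.00274 for HMOX1 and 0.0154 for TNFRSF10B. TNFRSF10B was also called after HOXA-AS3 KD with the GC trend removed (adjusted p = 0.0234), as 3.78% of all genes were. NIBAN1 and KLHL24, of the same list, went the other way after HOXB-AS3 KD, with log2 fold changes of -0.49 and -0.40 (adjusted p = 0.338 and 0.681 in edgeR). With the GC trend removed both were called (adjusted p = 0.01275 and 0.028).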
